A study of Homo sapiens with 16 samples.

Results

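The genes described here are 36 genes of autophagy and mitophagy, in the human glioblastoma (GBM) cell line LN229. They were chosen by name from the known steps of the pathway, with no threshold on their values, and all 36 are among the 13559 genes listed in the first experiment and the 14024 listed in the second. By role they comprise 5 genes of initiation, 6 of nucleation, 5 of membrane supply and 8 of conjugation. The others are 4 ATG8 family genes, 4 soluble cargo receptors and 4 mitophagy genes. RNA-seq was performed on 16 libraries in 8 groups of 2. In the first experiment, untreated LN229 cells were kept in regular culture (complete medium, normal oxygen) or in ischemic culture (medium low in glucose, glutamine and serum, under hypoxia). In the second experiment, cells in each culture received DMSO (the vehicle), VX745 (an inhibitor of the kinase p38α) or MK25 (an inhibitor of MK2, the kinase that p38α activates). All libraries come from this 1 cell line, for which the labels name no genetic change, and the labels give neither the time in culture nor the inhibitor doses for these libraries. The labels number the replicates without saying that they are separate cultures, so the p-values below measure the spread between these libraries, which may be technical.

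Autophagy encloses cytoplasm in a membrane, the autophagosome, which fuses with the lysosome so that its content is degraded and recycled. The ULK1 kinase complex starts the process, the class III PI3-kinase complex marks the site with the lipid PI3P, WIPI proteins read that lipid, and ATG9A and the ATG2 proteins supply membrane. The ATG conjugation machinery then attaches ATG8 proteins (LC3 and GABARAP) to the membrane, where receptors that bind both ATG8 and cargo dock. In mitophagy the cargo is mitochondria, recognised through receptors in their outer membrane such as BNIP3, BNIP3L (also called NIX) and FUNDC1, or through the kinase PINK1. The pathway is known as a response to starvation and to low oxygen, the conditions that ischemic culture combines. The libraries measure mRNA only, and autophagic flux was not measured in them.

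Promoters are shown first for 6 of the 8 genes that changed at least 2-fold between the cultures in both experiments, since 5 of the 6 rose together and 1 fell. Each run holds the 250 bases before the annotated start (RefSeq, GRCh38.p14), 5′ to 3′ on the strand of the gene, and promoters were found for 32 of the 36 genes. Capitals mark ACGTG, the core of the hypoxia response element bound by HIF, CACGTG, the E-box bound by MYC, USF and the lysosomal regulator TFEB, and TGACG, the short core of the site of ATF and CREB factors. Matches on either strand are marked, and CACGTG contains ACGTG.
BNIP3 (chr10:131981924-131982173, minus strand): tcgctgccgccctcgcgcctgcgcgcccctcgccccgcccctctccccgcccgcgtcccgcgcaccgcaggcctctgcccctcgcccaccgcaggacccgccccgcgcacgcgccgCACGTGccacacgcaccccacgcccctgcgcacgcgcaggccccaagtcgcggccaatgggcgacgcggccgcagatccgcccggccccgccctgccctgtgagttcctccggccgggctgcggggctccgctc
WIPI1 (chr17:68457497-68457746, minus strand): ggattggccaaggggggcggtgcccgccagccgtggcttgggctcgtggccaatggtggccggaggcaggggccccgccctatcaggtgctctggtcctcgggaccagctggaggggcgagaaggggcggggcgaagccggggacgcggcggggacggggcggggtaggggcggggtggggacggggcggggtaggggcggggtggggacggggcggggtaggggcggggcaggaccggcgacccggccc
MAP1LC3B (chr16:87392086-87392335, plus strand): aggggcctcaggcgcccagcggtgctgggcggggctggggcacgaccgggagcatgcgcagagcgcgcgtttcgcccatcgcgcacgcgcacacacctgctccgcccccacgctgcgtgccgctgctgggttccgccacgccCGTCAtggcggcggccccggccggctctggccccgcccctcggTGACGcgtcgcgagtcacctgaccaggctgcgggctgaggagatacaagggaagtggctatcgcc
GABARAPL1 (chr12:10212627-10212876, plus strand): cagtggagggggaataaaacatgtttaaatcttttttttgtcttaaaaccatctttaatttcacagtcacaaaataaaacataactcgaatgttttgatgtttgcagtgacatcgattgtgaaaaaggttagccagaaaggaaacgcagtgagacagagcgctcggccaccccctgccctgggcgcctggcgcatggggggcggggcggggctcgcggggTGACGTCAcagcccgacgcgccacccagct
CALCOCO2 (chr17:48830785-48831034, plus strand): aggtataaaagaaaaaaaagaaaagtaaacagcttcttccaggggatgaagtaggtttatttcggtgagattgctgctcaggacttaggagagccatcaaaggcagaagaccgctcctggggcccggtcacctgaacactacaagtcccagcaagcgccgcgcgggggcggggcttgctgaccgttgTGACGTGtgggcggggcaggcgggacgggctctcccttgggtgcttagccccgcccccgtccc
PIK3R4 (chr3:130746830-130747079, minus strand): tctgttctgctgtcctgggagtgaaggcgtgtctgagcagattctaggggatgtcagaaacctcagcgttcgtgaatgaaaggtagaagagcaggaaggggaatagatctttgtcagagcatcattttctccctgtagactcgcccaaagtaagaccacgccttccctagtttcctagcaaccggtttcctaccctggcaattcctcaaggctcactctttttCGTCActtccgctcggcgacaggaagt

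The BNIP3 promoter holds 1 CACGTG, and that of CALCOCO2 holds an overlapping TGACG and ACGTG. The motif TGACG occurs at 2 places in MAP1LC3B, within a palindrome in GABARAPL1 and once, on the opposite strand, in PIK3R4, the gene that fell, and the WIPI1 window holds none of the motifs. Of all 35116 promoters in the reference table, 18.5% hold ACGTG, 6.34% CACGTG and 21.2% TGACG. Of the 16190 promoters of genes listed in the second experiment, 22.1%, 8.09% and 27.2% do. Of the 38 promoters of the 32 autophagy genes, 12 hold ACGTG, 3 CACGTG and 14 TGACG. Counted per gene, with a match in any of its promoters, 12 of the 32 genes hold ACGTG, 3 CACGTG and 14 TGACG, and of the 10 with a promoter that rose in both culture comparisons 3, 1 and 6 do. Of the 11087 genes listed in the second experiment that have a promoter, 28.7%, 11.1% and 35.4% do. These matches are descriptions of letters and not of binding.

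Each library held between 20122017 and 37562668 reads on the listed genes, and the number of reads of a listed autophagy gene ran from 97 (ULK2) to 21694 (BNIP3), so none was near the floor of 3 reads. Replicates differed by more than sampling noise (chi-square per gene of 3.29 to 9.40, about 1 under sampling noise alone). Each was counted as a sample of its own, though a spread of this kind does not show that they are separate cultures. The hypoxia genes that check the culture labels rose in ischemic culture in 8 of 8 cases both without treatment and with DMSO, and VEGFA, an angiogenic factor, stood at 4.95 and 4.89 in regular and 9.74 and 9.80 in ischemic untreated libraries (log2 CPM). Of 6 markers of glioblastoma lines, VIM, NES, CD44, SOX2 and EGFR are listed and CHI3L1 is not. The markers of immune, endothelial and epithelial cells are not listed in either table, and the neuronal marker SNAP25 is, at 1.47 to 2.51. In ischemic culture VIM (1.27 with DMSO) and EGFR (0.80) rose, NES (-1.06) and SOX2 (-2.23) fell and CD44 (0.32) was not called, with the same calls without treatment. The part of these markers in the results was not tested. In bulk libraries such as these, a change in the share of cells that express a gene and a change in RNA per cell cannot be told apart.

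In ischemic against regular culture, all 4 soluble cargo receptors, 2 of the 4 mitophagy genes and 2 of the 4 ATG8 genes rose in both experiments, led by BNIP3 and BNIP3L. None of the 8 conjugation genes was called in either. Without treatment 14 of the 36 genes rose, 2 fell and 20 did not pass the test. With DMSO 12 rose, 2 fell and 22 did not. To be called, a gene had to change by 1.5 times or more with an adjusted p below 0.05 (limma, Benjamini-Hochberg over all genes of the table). By the same rule 21.3% of all genes rose and 20.2% fell without treatment, and 18.1% rose and 17.9% fell with DMSO. The median change of the 36 genes was 0.40 and 0.42 on the log2 scale, beside -0.01 over all genes in each experiment. The direction was the same in both experiments for 31 of the 36, with 11 genes called higher in both, 2 called lower in both and none called in opposite directions.

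**Figure D1:**
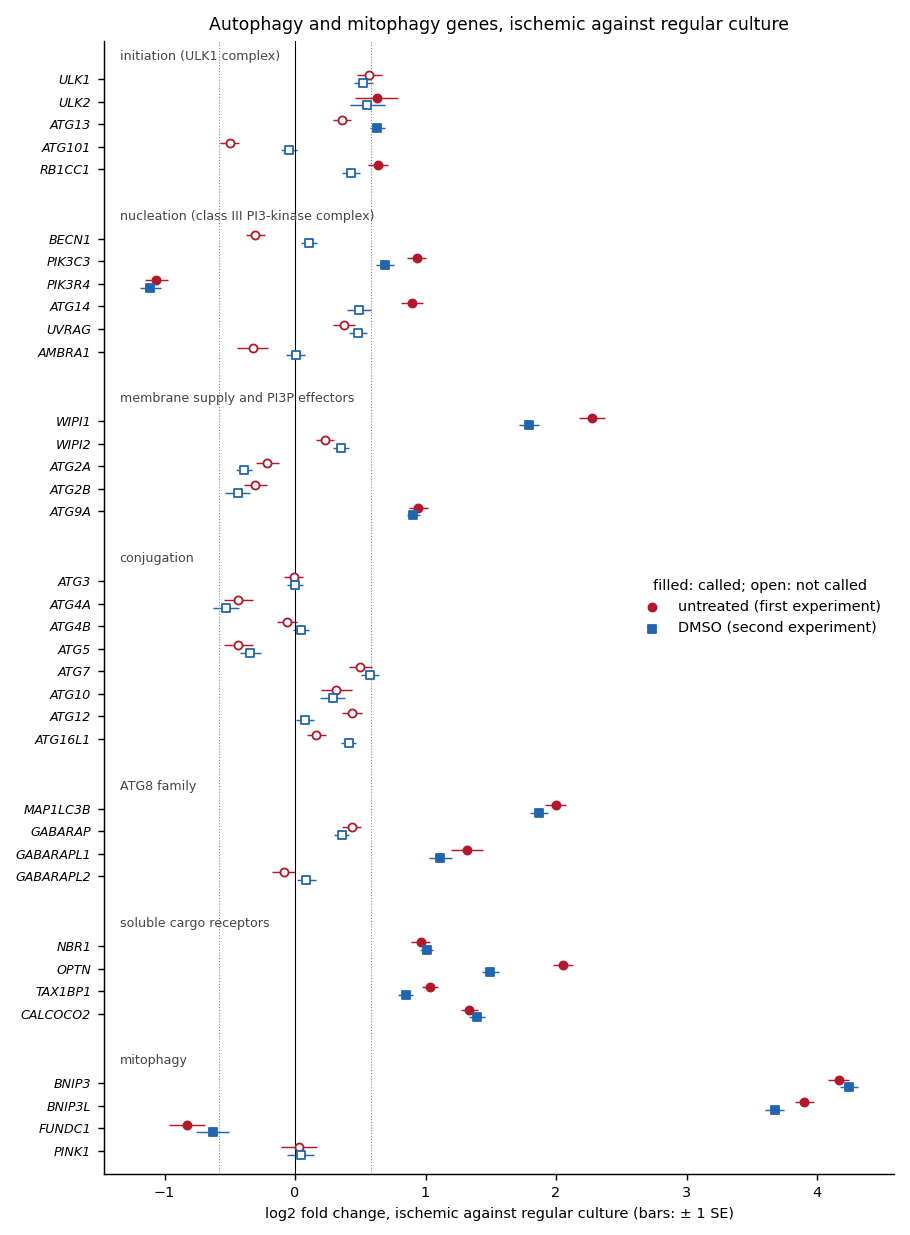
Log2 fold change of each of the 36 genes (rows, by role) in ischemic against regular culture, without treatment (red circles) and with DMSO (blue squares), with bars of 1 standard error either side. Filled symbols passed the test and dotted lines mark a fold change of 1.5 in either direction: BNIP3 and BNIP3L stand furthest right at about 4, all 4 soluble receptors lie right of the line, and all 8 conjugation genes lie between the lines.

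BNIP3 (Entrez 664) and BNIP3L (Entrez 665), receptors in the outer mitochondrial membrane that bind ATG8 proteins, rose the most of the 36 genes in both experiments. BNIP3 stood at 5.59 and 5.35 log2 CPM in the regular untreated libraries and at 9.61 and 9.66 in the ischemic ones. In the second experiment it stood at 5.24 and 5.04 in regular and 9.38 and 9.39 in ischemic culture with DMSO. Every ischemic library lay above every regular one, by 4.16 ± 0.08 (log2 ± SE, adjusted p = 1.00e-12) without treatment and 4.24 ± 0.07 (adjusted p = 4.24e-18) with DMSO, or 17.9-fold and 19.0-fold. BNIP3L read 4.75 and 4.62 in regular and 8.63 and 8.55 in ischemic untreated libraries, and 4.40 and 4.202 against 8.01 and 7.95 with DMSO. Its rise was 3.90 ± 0.07 (adjusted p = 7.65e-13) and 3.67 ± 0.07 (adjusted p = 2.06e-17), again with no overlap of the libraries. Per kilobase of transcript, a scale on which genes can be compared, BNIP3 reached 434 ± 3.73 CPM per kb in ischemic culture with DMSO, the highest of the 36 genes, from 22.9 ± 2.33 in regular culture (SD, n = 2). The other receptor of this kind among the 36 moved the opposite way. FUNDC1, an outer membrane receptor of hypoxia-induced mitophagy, fell from 3.54 and 3.39 to 2.74 and 2.54 without treatment (-0.83 ± 0.14, adjusted p = 1.61e-04) and from 3.72 and 3.78 to 3.01 and 3.22 with DMSO (-0.63 ± 0.13, adjusted p = 2.47e-04). Without ischemic replicate 1 the DMSO change was -0.53, short of the fold threshold. PINK1, the kinase that accumulates on damaged mitochondria and recruits the ligase parkin, read 2.97 and 2.85 in regular and 2.85 and 3.03 in ischemic untreated libraries (0.03 ± 0.14, adjusted p = 0.869) and 3.21 and 3.22 against 3.28 and 3.23 with DMSO (0.04 ± 0.10, adjusted p = 0.713). Its libraries overlapped without treatment and lay close together with DMSO, and the 95% intervals of its 2 differences ran from -0.27 to 0.33 and from -0.17 to 0.26.

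**Figure D2:**
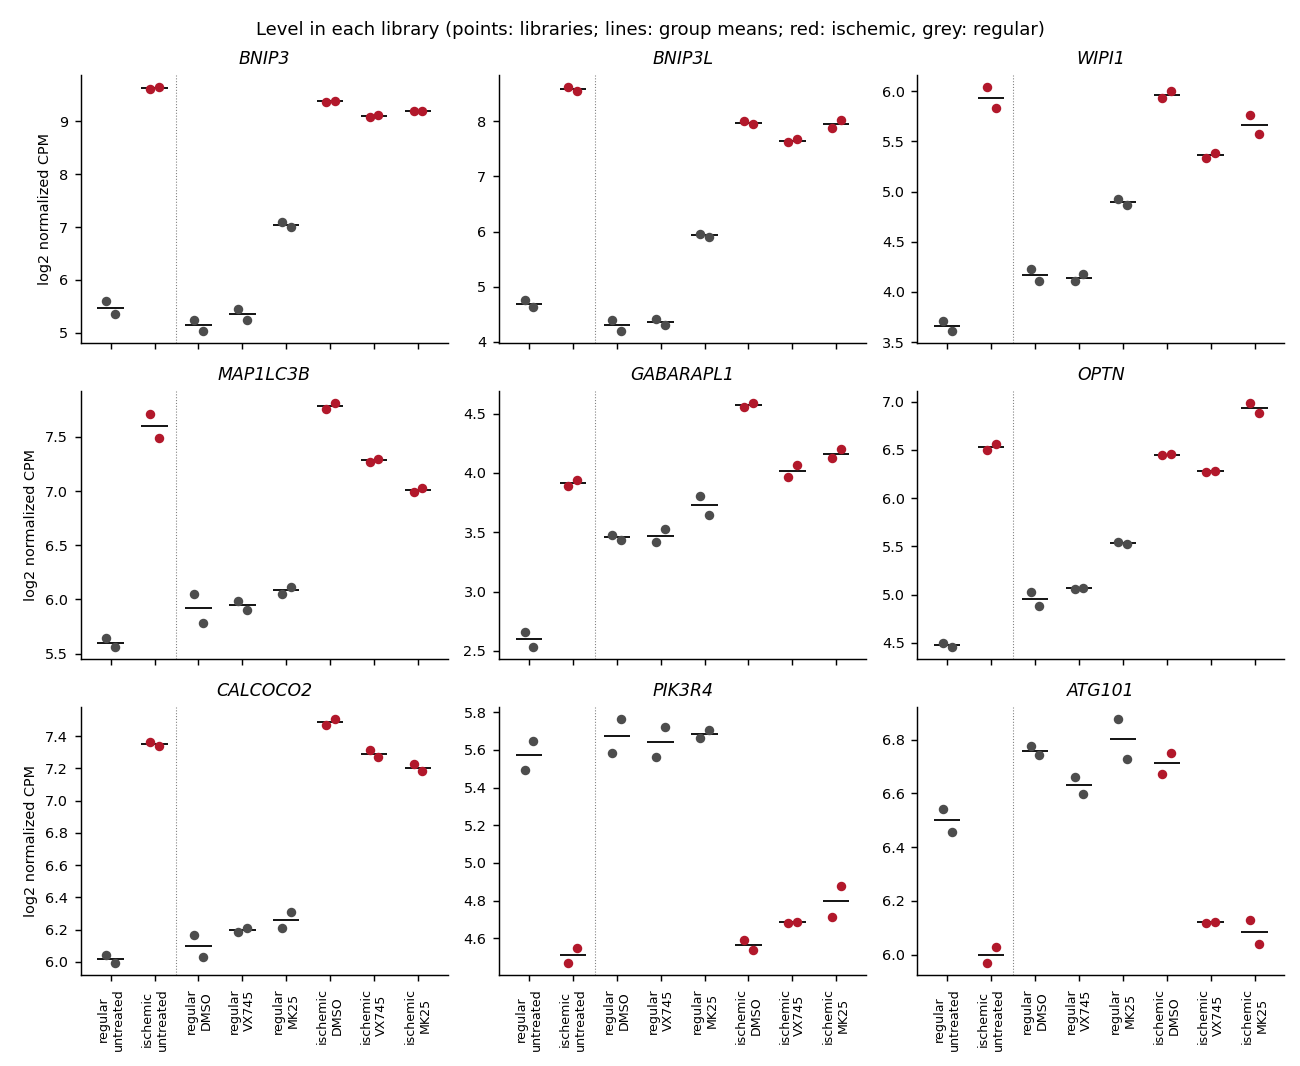
Level (log2 normalized CPM) of 9 genes in each of the 16 libraries, by group, with the first experiment left of the dotted line, ischemic libraries in red, regular ones in grey and group means as lines. For the 7 genes that rose every ischemic library lies above every regular one of its experiment, for PIK3R4 every ischemic library lies below, and regular culture with MK25 stands above the other regular groups for BNIP3, BNIP3L, WIPI1 and OPTN.

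The 4 ATG8 genes did not move as a block. MAP1LC3B (Entrez 81631), which encodes LC3B, the protein most used to mark autophagosomes, read 5.64 and 5.56 in regular and 7.71 and 7.49 in ischemic untreated libraries, and 6.05 and 5.78 against 7.76 and 7.81 with DMSO. Its rise was 1.997 ± 0.08 (adjusted p = 7.31e-10) and 1.87 ± 0.07 (adjusted p = 2.36e-13), or 3.99-fold and 3.66-fold. GABARAPL1 (Entrez 23710) read 2.66 and 2.53 against 3.89 and 3.94 without treatment, and 3.48 and 3.44 against 4.55 and 4.59 with DMSO. It rose by 1.32 ± 0.12 (adjusted p = 1.21e-06) and 1.11 ± 0.09 (adjusted p = 7.01e-09), and in both genes the ischemic libraries stood above all regular ones of their experiment. GABARAP differed less than the fold threshold, at 7.002 and 6.91 against 7.30 and 7.48 without treatment (0.43 ± 0.08, adjusted p = 2.62e-04) and 6.96 and 6.93 against 7.30 and 7.31 with DMSO (0.36 ± 0.06, adjusted p = 2.95e-05). GABARAPL2 read 5.55 and 5.34 against 5.37 and 5.35 without treatment (-0.09 ± 0.09, adjusted p = 0.393), and 5.57 and 5.41 against 5.52 and 5.63 with DMSO (0.09 ± 0.07, adjusted p = 0.299). The 95% intervals of these 2 differences ran from -0.28 to 0.10 and from -0.07 to 0.24. Reads of MAP1LC3B cannot be assigned with certainty, since MAP1LC3B2 is a near-identical copy. MAP1LC3B2 itself read 1.84 and 1.64 against 3.52 and 3.54 with DMSO, and rose by 1.79 ± 0.14 (adjusted p = 2.58e-09).

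Per kilobase of transcript, the order of the family in regular culture with DMSO was GABARAP (93.3 ± 1.32 CPM per kb, SD, n = 2), GABARAPL2 (46.3 ± 3.60), MAP1LC3B (28.3 ± 3.68) and GABARAPL1 (5.83 ± 0.111). No neighbours in that order overlapped within their SD. In ischemic culture with DMSO MAP1LC3B (103 ± 2.62) stood second behind GABARAP (120 ± 0.675), ahead of GABARAPL2 (49.1 ± 2.68) and GABARAPL1 (12.6 ± 0.238). MAP1LC3B therefore changed place with GABARAPL2, and did so in the untreated libraries as well (22.6 ± 0.883 against 44.9 ± 4.61 in regular, 90.6 ± 9.60 against 42.1 ± 0.494 in ischemic culture). With VX745 and MK25 in ischemic culture MAP1LC3B stood at 72.5 ± 1.21 and 60.1 ± 1.14 CPM per kb, still above GABARAPL2 at 45.9 ± 0.184 and 45.7 ± 1.07.

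**Figure D3:**
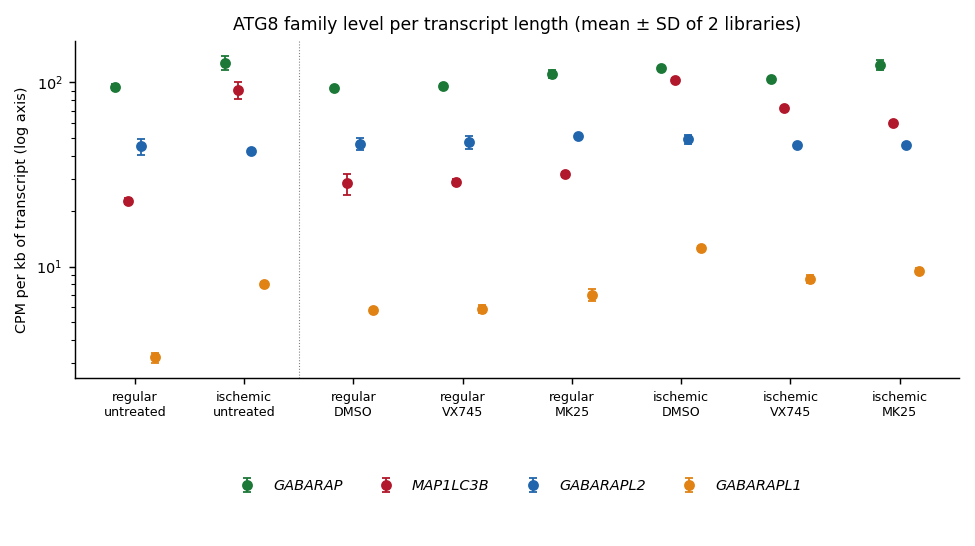
Level of the 4 ATG8 family genes per transcript length (CPM per kb, log axis) in the 8 groups, as mean and SD of 2 libraries. GABARAP stands highest and GABARAPL1 lowest in every group, and MAP1LC3B lies below GABARAPL2 in the 4 regular groups and above it in the 4 ischemic ones.

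All 4 soluble cargo receptors rose in both experiments. These proteins bind ubiquitin-marked cargo with 1 part and ATG8 with another. OPTN (optineurin, Entrez 10133) read 4.49 and 4.46 in regular and 6.50 and 6.56 in ischemic untreated libraries, and 5.03 and 4.88 against 6.44 and 6.45 with DMSO. It rose by 2.05 ± 0.08 (adjusted p = 3.46e-10) and 1.496 ± 0.06 (adjusted p = 1.12e-12), the largest rise of the group in each experiment. CALCOCO2 (NDP52, Entrez 10241) read 6.04 and 5.99 against 7.36 and 7.34 without treatment, and 6.17 and 6.03 against 7.47 and 7.51 with DMSO. Its rise was 1.34 ± 0.07 (adjusted p = 4.47e-09) and 1.39 ± 0.06 (adjusted p = 1.04e-12). TAX1BP1, a relative of CALCOCO2, read 7.48 and 7.46 against 8.501 and 8.51 without treatment (1.04 ± 0.06, adjusted p = 2.69e-08), and 7.51 and 7.46 against 8.35 and 8.32 with DMSO (0.85 ± 0.06, adjusted p = 3.81e-10). NBR1, a receptor for protein aggregates and peroxisomes, read 6.55 and 6.64 against 7.52 and 7.60 without treatment (0.96 ± 0.07, adjusted p = 1.16e-07), and 6.60 and 6.58 against 7.56 and 7.63 with DMSO (1.01 ± 0.05, adjusted p = 1.58e-11). For all 4 genes the groups did not overlap.

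Among the 5 genes of membrane supply and PI3P reading, 2 rose and 3 did not pass the test in either experiment. WIPI1 (Entrez 55062), a PI3P-binding protein of the forming autophagosome, read 3.71 and 3.61 in regular and 6.05 and 5.83 in ischemic untreated libraries, and 4.23 and 4.11 against 5.93 and 5.998 with DMSO. Its rise of 2.28 ± 0.10 (adjusted p = 1.15e-09) and 1.79 ± 0.08 (adjusted p = 1.12e-12) was the largest outside the mitophagy receptors in the first experiment. Its paralog WIPI2, which recruits the conjugation machinery, differed by 0.23 and 0.35, under the fold threshold. ATG9A, the membrane protein that carries lipid to the growing autophagosome, rose by 0.95 ± 0.07 (adjusted p = 1.45e-07) and 0.91 ± 0.05 (adjusted p = 6.75e-11), from 7.12 and 7.18 to 8.04 and 8.07 with DMSO. The lipid transfer proteins ATG2A and ATG2B differed by -0.21 and -0.30 without treatment and by -0.39 and -0.44 with DMSO, below regular culture each time but short of the fold threshold.

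Within the class III PI3-kinase complex the subunits split. PIK3C3 (VPS34, Entrez 5289), the catalytic subunit, read 5.62 and 5.60 in regular and 6.49 and 6.59 in ischemic untreated libraries, and 5.50 and 5.32 against 6.12 and 6.09 with DMSO. It rose by 0.93 ± 0.07 (adjusted p = 2.51e-07) and 0.69 ± 0.07 (adjusted p = 1.39e-07). PIK3R4 (VPS15, Entrez 30849), the regulatory subunit that pairs with it, read 5.49 and 5.65 against 4.47 and 4.55 without treatment, and 5.59 and 5.76 against 4.59 and 4.54 with DMSO. It fell, with changes of -1.06 ± 0.09 on the log2 scale (adjusted p = 4.38e-07) and -1.11 ± 0.08 (adjusted p = 1.30e-09), while its partner rose. ATG14, which directs the complex to autophagosome formation, rose without treatment (0.90 ± 0.08, adjusted p = 1.05e-06) and stood 0.49 ± 0.09 higher with DMSO, under the fold threshold. UVRAG, which takes the place of ATG14 in the endosomal form, differed by 0.38 and 0.48. BECN1 (beclin 1) read 6.09 and 6.11 in regular and 5.77 and 5.83 in ischemic untreated libraries (-0.30 ± 0.07, adjusted p = 0.0025), and 6.05 and 5.94 against 6.05 and 6.16 with DMSO (0.11 ± 0.06, adjusted p = 0.132). Its partner AMBRA1 differed by -0.33 and 0.01, neither past the fold threshold.

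In the ULK1 complex 2 of 5 genes rose without treatment and 1 with DMSO. Without treatment ULK2 (0.62 ± 0.16, adjusted p = 0.00425) and RB1CC1 (FIP200, the scaffold, 0.64 ± 0.08, adjusted p = 1.08e-05) rose, and without ischemic replicate 1 they stood at 0.48 and 0.55, short of the fold threshold. With DMSO only ATG13 among the 5 passed (0.63 ± 0.05, adjusted p = 1.57e-08). ULK1, the kinase itself, read 4.48 and 4.70 against 5.18 and 5.14 without treatment (0.57 ± 0.10, adjusted p = 1.74e-04), just under the fold threshold, and 0.52 ± 0.07 higher with DMSO. ATG101 (Entrez 60673), which stabilises ATG13, read 6.54 and 6.46 in regular and 5.97 and 6.03 in ischemic untreated libraries (-0.50 ± 0.07, adjusted p = 5.00e-05), but 6.78 and 6.74 against 6.67 and 6.75 with DMSO (-0.05 ± 0.06, adjusted p = 0.515). Its libraries did not overlap in the first experiment and did in the second.

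The 8 conjugation genes were called in neither culture comparison (limma), though 5 without treatment and 5 with DMSO passed the adjusted p alone (3 higher and 2 lower each time). By that rule 35.2% of all genes were higher and 35.2% lower without treatment, and 34.4% were higher and 35.2% lower with DMSO, so that count is near the background. Their differences ran from -0.44 to 0.50 without treatment and from -0.53 to 0.57 with DMSO. ATG7, the E1-like enzyme that activates ATG8 and ATG12, read 5.13 and 4.94 in regular and 5.50 and 5.58 in ischemic untreated libraries (0.50 ± 0.09, adjusted p = 2.86e-04), and 4.99 and 4.999 against 5.57 and 5.57 with DMSO (0.57 ± 0.07, adjusted p = 8.61e-07). ATG4A, a protease that processes ATG8 proteins, stood lowest (-0.53 ± 0.10, adjusted p = 1.54e-04 with DMSO). ATG5 differed by -0.44 ± 0.11 and -0.34 ± 0.08, below regular culture each time, and its partners ATG12 (0.44 ± 0.08 and 0.08 ± 0.07) and ATG16L1 (0.16 ± 0.07 and 0.41 ± 0.06) by amounts above 0. ATG3, the E2-like enzyme for ATG8, differed by -0.01 and 0.00, and ATG4B and ATG10 differed by 0.04 and 0.29 with DMSO.

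In cells given an inhibitor, ischemic culture was again compared with regular culture. With VX745 in both cultures 9 of the 36 genes rose and 3 fell, where 18.5% of all genes rose and 14.5% fell. With MK25 in both 11 rose and 5 fell, where 17.7% rose and 15.0% fell. BNIP3 rose by 3.76 ± 0.07 with VX745 (adjusted p = 3.10e-17) and by 2.16 ± 0.07 with MK25 (adjusted p = 8.79e-14). WIPI1 rose by 1.22 ± 0.08 (adjusted p = 2.51e-10) and 0.77 ± 0.08 (adjusted p = 9.77e-08), and MAP1LC3B by 1.34 ± 0.07 (adjusted p = 2.90e-11) and 0.93 ± 0.07 (adjusted p = 3.93e-09). GABARAPL1 stood 0.54 ± 0.09 and 0.44 ± 0.09 higher in ischemic culture, no longer past the fold threshold. OPTN rose by 1.21 ± 0.06 (adjusted p = 2.45e-11) and 1.40 ± 0.06 (adjusted p = 4.12e-12). Among genes that fell, PIK3R4 changed by -0.96 ± 0.08 (adjusted p = 1.07e-08) and -0.89 ± 0.08 (adjusted p = 2.88e-08). ATG4A was called lower with VX745 (-0.83 ± 0.10, adjusted p = 1.27e-06) and with MK25 (-0.70 ± 0.10, adjusted p = 8.19e-06), ATG101 (-0.72 ± 0.06, adjusted p = 1.67e-08) and ATG5 (-0.59 ± 0.08, adjusted p = 4.46e-06) with MK25, and FUNDC1 with both (-0.68 and -0.79). Leaving out 1 library took ATG5 and ATG4A to -0.54 and -0.57 with MK25, UVRAG to 0.56, FUNDC1 to -0.55 with VX745 and TAX1BP1 to 0.53 with VX745, all short of the fold threshold.

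VX745 was compared with DMSO within each culture. In ischemic culture none of the 36 genes rose with VX745 and 2 fell, while 4.35% of all genes rose and 0.906% fell. WIPI1 read 5.93 and 5.998 with DMSO and 5.34 and 5.39 with VX745, and fell, with a log2 change of -0.60 ± 0.08 (adjusted p = 2.80e-05). ATG101 read 6.67 and 6.75 against 6.12 and 6.12, and fell, with a change of -0.59 ± 0.06 (adjusted p = 3.98e-06). The groups did not overlap for either gene, but both sat close to the fold threshold of 1.5. WIPI1 stood at -0.57 without ischemic DMSO replicate 2, and at -0.58 without ischemic VX745 replicate 1, and ATG101 at -0.55 without the first of these libraries, so each call was then lost, as it was after quantile normalization (-0.57 for WIPI1 and -0.52 for ATG101). The ATG8 genes GABARAPL1 (4.55 and 4.59 against 3.96 and 4.07, -0.56 ± 0.09, adjusted p = 2.89e-04) and MAP1LC3B (7.76 and 7.81 against 7.27 and 7.30, -0.50 ± 0.07, adjusted p = 7.45e-05) stood lower by amounts under that fold, and GABARAPL1 passed it without ischemic VX745 replicate 2 (-0.61). With no fold threshold 14 of the 36 genes were lower and none higher, where 14.9% of all genes were lower and 14.0% higher by that rule, and the median of the 36 was -0.13, beside 0.00 for all genes. BNIP3 (9.38 and 9.39 against 9.09 and 9.13, -0.28 ± 0.07, adjusted p = 0.00845) and BNIP3L (8.01 and 7.95 against 7.62 and 7.68, -0.33 ± 0.07, adjusted p = 0.00262) were among the 14. In the same comparison 6 of the 8 hypoxia check genes were lower at the adjusted p with no fold threshold, none was higher, and their median was -0.35, and their part in the result was not tested. In regular culture no member was called with VX745 (limma), none at an unadjusted p under 0.05 with that fold and none by voom on the recovered reads, while 0.0642% of all genes rose and 0.0357% fell. The differences there ran from -0.17 (RB1CC1) to 0.22 (ULK2).

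MK25 was compared in the same way. In ischemic culture none of the 36 genes rose past the fold threshold and 2 fell, while 7.02% of all genes rose and 2.65% fell. MAP1LC3B read 7.76 and 7.81 with DMSO and 6.99 and 7.03 with MK25, and fell, with a change of -0.77 ± 0.07 (adjusted p = 3.01e-07). ATG101 read 6.67 and 6.75 against 6.13 and 6.04, and fell, with a change of -0.63 ± 0.06 (adjusted p = 7.03e-07). Without ischemic MK25 replicate 2 that change was -0.58, and after quantile normalization -0.55, both short of the fold threshold. At an adjusted p under 0.05 with no fold threshold 10 of the 36 genes were lower and 5 higher. By that rule 3080 of all 14024 genes were lower and 2770 higher. OPTN was among the 5, at 6.44 and 6.45 against 6.99 and 6.88 (0.48 ± 0.06, adjusted p = 1.66e-05), under the fold threshold. SQSTM1, outside the 36, was past the fold threshold and called higher with MK25, at 10.22 and 10.21 against 10.95 and 10.86. In regular culture SQSTM1 read 9.16 and 9.05 with DMSO and 9.89 and 9.79 with MK25, and was called higher there too (0.73). BNIP3 (9.20 and 9.21 with MK25, -0.18 ± 0.07, adjusted p = 0.0553) and BNIP3L (7.89 and 8.03, -0.02 ± 0.07, adjusted p = 0.854) were not called, and the 95% interval for BNIP3L ran from -0.17 to 0.13. The split of all calls depended on the scaling. Of the genes called in ischemic culture, 82.8% were higher with VX745 and 72.6% with MK25, and after quantile normalization 62.6% and 56.4% were. For VX745 in regular culture the share was 64.3%, with 9 genes higher and 5 lower, and after quantile normalization 7 were higher and 7 lower. VX745 and MK25 were set against the same DMSO libraries, so the similarity of their effects was not measured.

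In regular culture 3 of the 36 genes rose with MK25 and none fell, while 1.88% of all genes rose and 0.606% fell. BNIP3 read 5.24 and 5.04 with DMSO, 5.46 and 5.24 with VX745 and 7.09 and 6.99 with MK25, and rose by 1.90 ± 0.07 with MK25 (adjusted p = 5.86e-12), or 3.74-fold. BNIP3L read 4.40 and 4.202 with DMSO, 4.41 and 4.30 with VX745 and 5.95 and 5.91 with MK25, and rose by 1.63 ± 0.07 (adjusted p = 2.50e-11). WIPI1 read 4.23 and 4.11 with DMSO, 4.11 and 4.18 with VX745 and 4.92 and 4.86 with MK25, and rose by 0.72 ± 0.08 (adjusted p = 5.28e-06). For each of these genes both MK25 libraries stood above all 4 other regular libraries of the experiment. OPTN stood 0.58 ± 0.06 higher (adjusted p = 8.65e-06), just under the fold threshold, and passed it without regular DMSO replicate 1 (0.65). In the same libraries 5 of the 8 hypoxia check genes rose, among them CA9 (-1.77 and 0.27 with DMSO, 2.14 and 2.30 with MK25), PDK1 (1.86 ± 0.08, adjusted p = 2.83e-11) and VEGFA (0.92 ± 0.05, adjusted p = 1.68e-09), and the median of the 8 was 0.99. With VX745 the median of these 8 was -0.07. The part of the hypoxia genes in the rise of BNIP3, BNIP3L and WIPI1 was not tested.

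**Figure D4:**
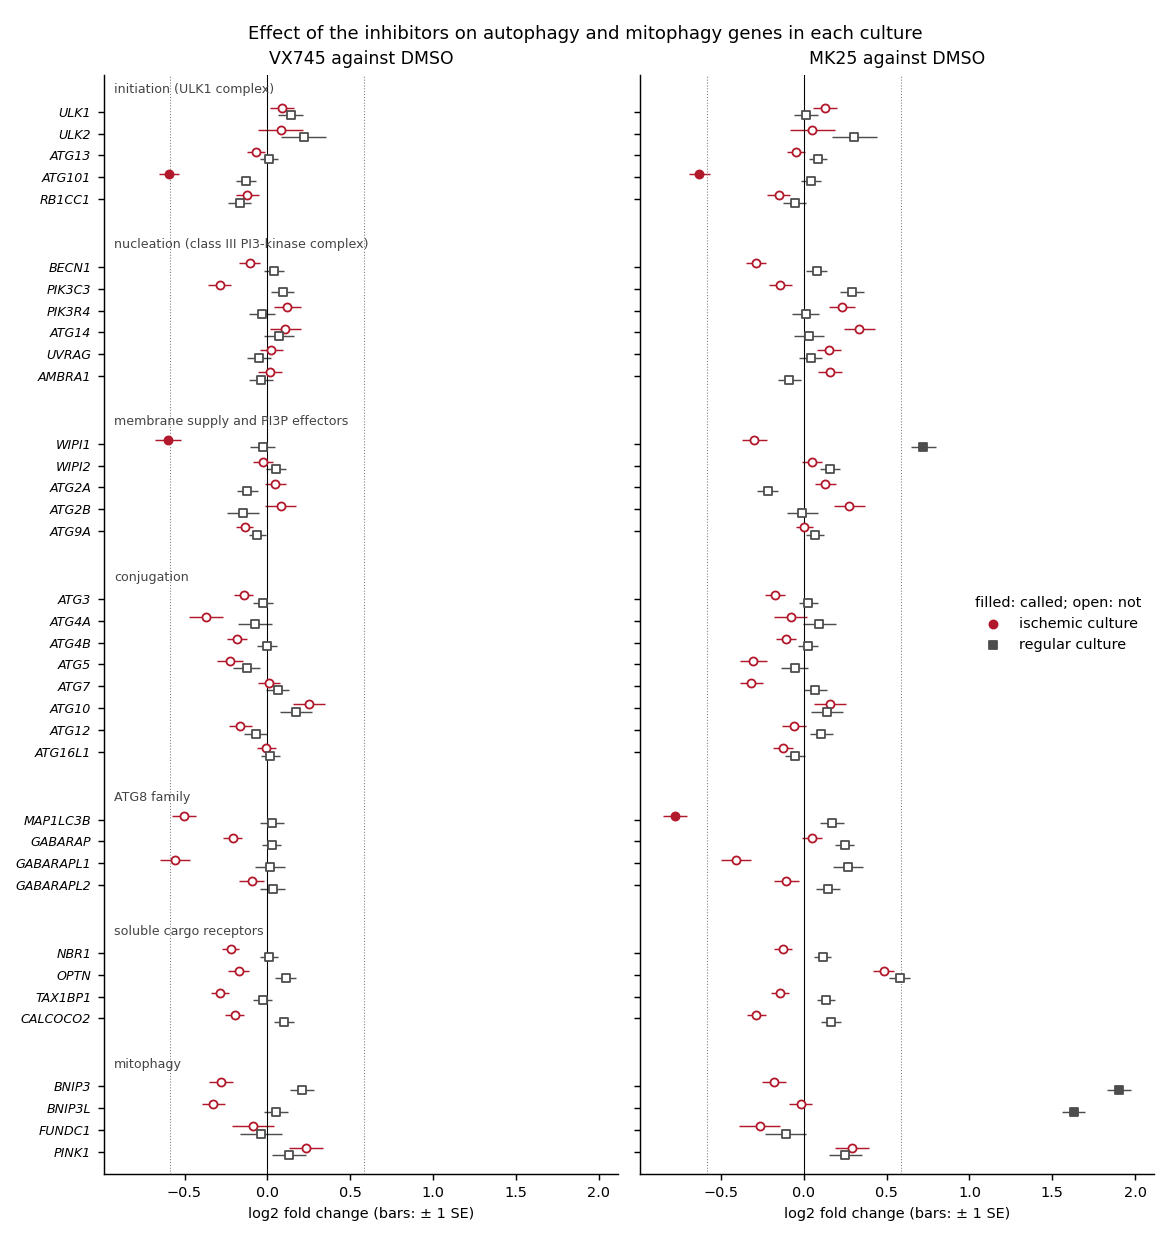
Log2 fold change against DMSO of each of the 36 genes with VX745 (left) and MK25 (right), in ischemic culture (red circles) and regular culture (grey squares), with bars of 1 standard error either side. Filled symbols passed the test and dotted lines mark a fold change of 1.5: BNIP3 and BNIP3L lie near 1.90 and 1.63 with MK25 in regular culture and near 0 in ischemic culture, and the ATG8 genes MAP1LC3B and GABARAPL1 lie left of 0 in ischemic culture with both compounds.

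Whether an inhibitor acted differently in the 2 cultures was tested by an interaction, the effect in ischemic minus the effect in regular culture, called at an adjusted p under 0.05 of any size. Lower and higher refer here to the signed effect, not to its size, so a lower effect can be a stronger fall. For VX745, 9 of the 36 genes had a lower effect in ischemic culture and none a higher one, where 6.0% of all genes were lower and 5.78% higher. For MK25, 12 were lower and 1 higher, where 13.9% of all genes were lower and 10.5% higher. The largest interactions of MK25 were those of BNIP3 (-2.08 ± 0.10, adjusted p = 1.07e-09), BNIP3L (-1.65 ± 0.10, adjusted p = 9.99e-09), WIPI1 (-1.02 ± 0.11, adjusted p = 5.29e-06) and MAP1LC3B (-0.94 ± 0.10, adjusted p = 5.57e-06). Of the 8 hypoxia check genes 7 had a lower effect of MK25 in ischemic culture by the same rule, and 2 of VX745, and their part in these interactions was not tested. BNIP3 and BNIP3L were called with MK25 in regular culture alone, where they rose, and MAP1LC3B in ischemic culture alone, where it fell. For VX745 the largest were GABARAPL1 (-0.57 ± 0.13, adjusted p = 0.00965), WIPI1 (-0.57 ± 0.11, adjusted p = 0.00365), MAP1LC3B (-0.53 ± 0.10, adjusted p = 0.00365) and BNIP3 (-0.48 ± 0.10, adjusted p = 0.00707). ATG101 had an interaction with both compounds, of -0.46 ± 0.09 (adjusted p = 0.00365) and -0.67 ± 0.09 (adjusted p = 4.27e-05). Its difference between ischemic and regular culture was -0.50 without treatment, -0.05 with DMSO, -0.51 with VX745 and -0.72 with MK25. Both of its interactions are taken against the same DMSO libraries, where that difference was smallest.

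The other genes with an interaction had smaller ones. ATG7 read 5.57 and 5.57 in ischemic culture with DMSO and 5.28 and 5.23 with MK25, beside 4.99 and 4.999 against 5.15 and 4.98 in regular culture, an interaction of -0.39 ± 0.10 (adjusted p = 0.00786). BECN1 read 6.05 and 6.16 against 5.81 and 5.82 in ischemic culture, beside 6.05 and 5.94 against 6.09 and 6.06 in regular culture, an interaction of -0.37 ± 0.09 (adjusted p = 0.00602). ATG2A was the 1 gene with a higher effect in ischemic culture, at 5.87 and 5.86 against 6.004 and 5.995 there and 6.17 and 6.35 against 6.05 and 6.03 in regular culture (0.35 ± 0.09, adjusted p = 0.00891). PIK3C3 read 5.85 and 5.78 with VX745 and 5.90 and 6.02 with MK25 in ischemic culture, and 5.53 and 5.49 against 5.66 and 5.75 in regular culture. Its interactions were -0.38 ± 0.10 (adjusted p = 0.0211) and -0.43 ± 0.10 (adjusted p = 0.00474). CALCOCO2 read 7.31 and 7.27 with VX745 and 7.23 and 7.18 with MK25 in ischemic culture, and 6.18 and 6.21 against 6.21 and 6.31 in regular culture. TAX1BP1 read 8.05 and 8.04 against 8.14 and 8.24 in ischemic culture, and 7.51 and 7.40 against 7.59 and 7.64 in regular culture. Each of these receptors had an interaction between -0.26 and -0.45 with each compound. NBR1 had one with MK25 (-0.24 ± 0.07, adjusted p = 0.0252) and an adjusted p of 0.0502 with VX745. The VX745 interactions of ATG101, WIPI1 and MAP1LC3B kept their call whichever library was left out and under every other setting, as did all MK25 interactions but those of NBR1 and TAX1BP1. Leaving out 1 library gave 4 to 10 interactions with VX745, the fewest without ischemic VX745 replicate 1.

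The remaining library values of the genes described in full are these. With VX745 and MK25 in regular culture, MAP1LC3B read 5.98 and 5.91 against 6.05 and 6.12, all 4 below its ischemic values. GABARAPL1 read 3.42 and 3.52 with VX745 and 3.81 and 3.65 with MK25 in regular culture and 4.13 and 4.198 with MK25 in ischemic culture. The other ATG8 genes varied less. GABARAP read 7.002 and 6.94 with VX745 and 7.24 and 7.14 with MK25 in regular culture, and 7.07 and 7.12 against 7.42 and 7.29 in ischemic culture. GABARAPL2 read 5.61 and 5.43 against 5.65 and 5.63 in regular culture, and 5.48 and 5.49 against 5.45 and 5.50 in ischemic culture. For the receptors and the PI3P step, ischemic libraries again stood above regular ones with either inhibitor. OPTN read 5.06 and 5.06 with VX745 and 5.54 and 5.52 with MK25 in regular culture, and 6.27 and 6.28 with VX745 in ischemic culture. NBR1 read 6.56 and 6.64 against 6.69 and 6.71 in regular culture, and 7.38 and 7.37 against 7.46 and 7.48 in ischemic culture. WIPI1 read 5.76 and 5.57 with MK25 in ischemic culture. PIK3R4 was the reverse, with ischemic libraries below regular ones. It read 5.56 and 5.72 with VX745 and 5.66 and 5.71 with MK25 in regular culture, and 4.68 and 4.69 against 4.71 and 4.88 in ischemic culture. ATG101 read 6.66 and 6.60 with VX745 and 6.88 and 6.73 with MK25 in regular culture, above its ischemic values with the same inhibitors. With VX745, BECN1 read 6.07 and 5.997 in regular and 6.01 and 5.98 in ischemic culture, and ATG7 5.07 and 5.05 against 5.59 and 5.56. ATG2A read 5.76 and 5.996 in regular and 5.62 and 5.71 in ischemic untreated libraries, and 6.14 and 6.14 against 5.95 and 5.88 with VX745. These last 3 genes were called in no comparison of cultures.

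The 14 genes that rose in the untreated experiment, which shares no library with the second, were followed through these interactions. The culture response was smaller with VX745 than with DMSO in 12 of the 14, with a call in 8, and smaller with MK25 in 13, with a call in 9. Among all 2855 genes that rose in the untreated experiment and are listed in the second, 57.6% had a smaller response with VX745 and 10.4% a call, and 59.3% and 21.7% with MK25. The median interaction of the 14 genes was -0.29 with VX745 and -0.36 with MK25, beside -0.05 and -0.09 for the 2855. A smaller response can come from a lower ischemic or a higher regular value. Of the 11 genes higher in both experiments, 9 stood below DMSO in ischemic and 11 above it in regular culture with MK25. With VX745 11 stood below DMSO in ischemic and 8 above it in regular culture. These 11 genes were chosen in part by the DMSO libraries that they are set against here. That choice favours such counts, and no share over all genes was taken for them. Both inhibitors are set against the same DMSO libraries here too.

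Other genes of the pathway, outside the 36, moved as follows in ischemic against regular culture with DMSO. In that comparison 18.1% of all genes rose and 17.9% fell. Of 23 further core autophagy genes 7 rose and 1 fell. Among them WDR45 (WIPI4, a PI3P reader that binds ATG2) rose by 1.73 ± 0.06 (adjusted p = 1.31e-13), and ATG4C, an ATG8 protease, fell (-1.09 ± 0.12, adjusted p = 3.50e-07). ATG9B, which overlaps NOS3 on the opposite strand in libraries made, per the labels, with the SMART-Seq mRNA HT and Nextera XT kits, whose reads keep no strand, read -3.28 and -1.87 in regular and 0.01 and -0.96 in ischemic culture, and its regular level rests on a few reads. Of 16 further mitophagy genes none was called by limma in that comparison, while 2 were higher and 3 lower at the adjusted p alone, shares below the 34.4% and 35.2% of all genes by that rule. Of 9 ER-phagy receptors 2 rose, CALCOCO1 (1.15 ± 0.08, adjusted p = 1.60e-09) and RETREG2 (0.62 ± 0.05, adjusted p = 1.71e-08), a share near that of all genes, and none fell. Of 20 genes of signalling and transcription upstream of autophagy 8 rose and 2 fell. The rises were led by EPAS1 (HIF2α, 2.44 ± 0.09, adjusted p = 1.62e-13), PRKAA2 (a catalytic subunit of the energy sensor AMPK, 2.09 ± 0.10, adjusted p = 4.61e-12) and DDIT3 (CHOP, 1.84 ± 0.08, adjusted p = 1.15e-12), and the falls were FOXO1 (-1.25 ± 0.13, adjusted p = 1.42e-07) and MITF (-0.67 ± 0.10, adjusted p = 7.43e-06). TFEB, the lysosomal regulator, differed by -0.03 (adjusted p = 0.849). TFE3, of the same list, read 6.48 and 6.55 in regular and 7.31 and 7.41 in ischemic culture. In ischemic culture DDIT3 was the 1 upstream gene that fell with VX745 (-0.90 ± 0.08, adjusted p = 7.15e-07).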

How the data were processed

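RNA-seq reads were aligned by the authors with HISAT2 (GRCh38) in Galaxy and tested with edgeR. Versions and the counting program are not given in the sources used here. The deposited values are log2 normalized CPM per gene and library, in 1 table per experiment, and were used unchanged, with no pseudocount added. They hold an offset of about 2 reads, which shrinks the fold change of low genes, and 100% of the values came out as whole reads (within 0.1). Of the Entrez identifiers, 99.4% and 99.3% matched a symbol in RefSeq.

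Differences were tested with limma 3.58.1 (R 4.3.3; 1 mean per group, moderated with a variance trend, two-sided, Benjamini-Hochberg over all genes), separately for the 4 and the 12 libraries; edgeR was not used, since the deposited values are not counts, and voom on the recovered reads was run as an alternative. On simulated data, genes were scored by the adjusted p alone, with no fold threshold. The untreated and the DMSO comparison recovered 100% and 98.0% of 200 genes given a log2 change of 1, and each recovered 68.5% at 0.5. The simulation used 1 fixed spread. In the data 70.4% and 69.6% of all genes passed the adjusted p alone, so these shares need not hold there. Transcript lengths came from GENCODE 44. The alternatives are given at the end.

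The 36 genes, the further lists and the tests were chosen with earlier results of these data known. Values in every library are given for genes with a 2-fold change in both culture comparisons. They are also given for the 3 largest called effects of each inhibitor in ischemic culture, all interactions and the ATG8 genes of the 36. ULK1, ATG9A, FUNDC1, PINK1, SQSTM1, CA9, PDK1, VEGFA, TFEB, TFE3 and the markers named were added outside that rule. From each further list, the 3 largest rises and falls with DMSO were to be named, of which MAP1LC3B2 is described with MAP1LC3B. The result of 1 marker gene is not reported here.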

Additional observations from a re-analysis of the deposited data

Results flagged for a closer look

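The effect of an inhibitor differed between the cultures for several genes, by the interaction test (limma, effect in ischemic minus effect in regular culture, log2 scale, adjusted p under 0.05). With VX745 the difference was -0.46 for ATG101, -0.38 for PIK3C3, -0.57 for WIPI1, -0.53 for MAP1LC3B and -0.57 for GABARAPL1. It was -0.26 for TAX1BP1, -0.30 for CALCOCO2, -0.48 for BNIP3 and -0.38 for BNIP3L. With MK25 it was -0.67 for ATG101, -0.37 for BECN1, -0.43 for PIK3C3, -1.02 for WIPI1, 0.35 for ATG2A and -0.39 for ATG7. For the ATG8 genes and receptors it was -0.94 for MAP1LC3B, -0.68 for GABARAPL1, -0.24 for NBR1, -0.28 for TAX1BP1 and -0.45 for CALCOCO2, and for the mitophagy receptors -2.08 for BNIP3 and -1.65 for BNIP3L. Groups of 2 libraries are too small for a search for outlying samples.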

How the results depend on the processing

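No called gene changed direction under any alternative. The counts of called genes followed the fold threshold. At a fold of at least 2, they were 9 without treatment, 9 with DMSO, 6 with VX745 and 3 with MK25 in the culture comparisons. By that rule 1529 of all 13559 genes were higher and 1234 lower without treatment. Of all 14024 genes, 1267 were higher and 1138 lower with DMSO, 1302 and 730 with VX745, and 1201 and 749 with MK25. For each inhibitor in ischemic culture the count was 0. There 159 of all genes were higher and 34 lower with VX745, and 290 and 94 with MK25. With no fold threshold the culture comparisons gave 31, 28, 28 and 29, where 70.4%, 69.6%, 66.6% and 67.2% of all genes passed. The inhibitors gave 14 (VX745) and 15 (MK25) in ischemic culture and 7 (MK25) in regular culture, where 28.9%, 41.7% and 12.2% passed. Quantile normalization left 1 gene for each inhibitor in ischemic culture (GABARAPL1 in place of WIPI1 and ATG101 with VX745, and MAP1LC3B with MK25) and 5 interactions with VX745. Of all genes, 322 were then higher and 192 lower with VX745, 629 and 486 with MK25, and 590 and 436 by the VX745 interaction. Without a variance trend 4 interactions with VX745 were left, where 384 of all genes were higher and 210 lower. With an unadjusted p (limma) 20 with MK25 passed, where 2300 of all genes were higher and 2833 lower. Leaving out 1 library gave 0 to 3 calls for VX745 and 1 to 2 for MK25 in ischemic culture, with the lone library left in a group assumed to vary like the other groups. For the VX745 interactions it gave 4 to 10, the fewest without ischemic VX745 replicate 1 and 5 without regular DMSO replicate 2, regular VX745 replicate 1, ischemic DMSO replicate 1 or ischemic VX745 replicate 2. Filtering low genes, median centring, fitting only the groups compared and voom on the recovered reads moved no count of these genes by more than 1.5 times. The replicate block kept all 360 results on their side of the threshold (14 higher and 2 lower without treatment). Same-numbered libraries deviated together (r over 0.1) in 4 of 15 pairs of groups in the second experiment (r from -0.27 to 0.32, and 0.27 for the 1 pair in the first), so the numbers are not taken to pair the libraries. Outside the interactions, a change under the fold threshold was not called whatever its adjusted p, so a gene not called here may differ. In the simulation, changes of 0.5 on the log2 scale were found in part only, by the adjusted p alone.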
